A study of Mus musculus with 6 samples.

Results

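The genes examined here encode the mitochondrial enzymes that act on a fatty acid after its first dehydrogenation, together with the enzyme that removes malonyl-CoA. The 9 members were taken by gene symbol from the platform annotation of the array: Hadha, Hadhb, Hadh, Acaa2 and Echs1 of the core spiral, Eci1, Eci2 and Decr1, which handle double bonds, and Mlycd. Hadha had no named probe here, and the other 8 members, with 12 probes, are among the 16590 genes that the array's probes name. Of the 9, 7 members had a probe whose detection p-value lay below 0.05 for the pair of arrays of some group.

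Expression was measured on 6 Illumina bead arrays of primary hepatocytes, the parenchymal cells of the liver, taken from male wild-type mice with a C57Bl6/J background at 10 weeks of age. One pair of arrays came from cells treated with KD3010, one from cells treated with GW1516 and one from cells given DMSO, the solvent that served as vehicle. KD3010 and GW1516 are agonists of PPAR-delta, a nuclear receptor. The sources used here name no dose, no length of exposure, no number of mice and no pooling. Paired arrays are technical replicates by their labels, so every p-value below measures the spread between such arrays, and no spread between cultures or animals was measured. In whole cultures, fewer cells of a type and less RNA per cell cannot be told apart.

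Beta-oxidation shortens an activated fatty acid by repeated turns of a spiral. After an acyl-CoA dehydrogenase has made a double bond, a hydratase adds water across it, a hydroxyacyl-CoA dehydrogenase oxidises the product and a thiolase cuts off acetyl-CoA. Long chains go through the trifunctional protein of the inner membrane, built from the products of Hadha and Hadhb, whereas shorter chains use the soluble enzymes of Echs1, Hadh and Acaa2. Double bonds of unsaturated fats are moved or removed by the isomerases of Eci1 and Eci2 and the reductase of Decr1. In liver this pathway is most active in fasting, and malonyl-CoA, which Mlycd breaks down, restrains the entry of fatty acids into mitochondria. PPAR receptors are known to bind paired copies of a short motif, AGGTCA, and many genes of fatty acid oxidation are known targets of the family.

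Promoter windows of 250 bases before to 50 bases after the gene start were examined for 7 of 9 members in RefSeq's annotation of GRCm38.p6. Those of Acaa2 and Decr1 were not examined, and 3 of the 7 windows are shown. The window of Hadhb at chr5:30155003-30155302 (plus strand) is shown because it is also the upstream region of Hadha, which lies on the other strand and had no probe. Capitals mark the 228 bases it shares with the window of Hadha, and 272 bases lie between the 2 gene starts. The window of Eci2 at chr13:34994095-34994394 (minus strand) is shown because Eci2 had the largest change of any tested member with both agonists. The window of Echs1 at chr7:140116372-140116671 (minus strand) is shown because it alone holds AGGTCA unbroken, and capitals mark its matches to the paired motif.
Hadhb: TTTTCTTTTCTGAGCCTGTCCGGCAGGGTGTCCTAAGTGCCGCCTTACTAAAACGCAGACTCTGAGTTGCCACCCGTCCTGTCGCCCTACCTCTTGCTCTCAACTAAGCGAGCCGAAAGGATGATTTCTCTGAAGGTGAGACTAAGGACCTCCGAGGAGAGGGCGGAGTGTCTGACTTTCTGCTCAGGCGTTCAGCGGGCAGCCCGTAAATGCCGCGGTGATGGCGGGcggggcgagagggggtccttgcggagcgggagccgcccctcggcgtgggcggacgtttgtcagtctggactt
Eci2: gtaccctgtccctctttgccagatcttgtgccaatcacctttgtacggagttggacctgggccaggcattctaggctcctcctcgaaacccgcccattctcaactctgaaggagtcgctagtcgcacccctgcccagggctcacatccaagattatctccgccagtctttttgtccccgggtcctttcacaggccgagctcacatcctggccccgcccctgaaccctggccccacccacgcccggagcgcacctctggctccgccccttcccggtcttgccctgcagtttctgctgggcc
Echs1: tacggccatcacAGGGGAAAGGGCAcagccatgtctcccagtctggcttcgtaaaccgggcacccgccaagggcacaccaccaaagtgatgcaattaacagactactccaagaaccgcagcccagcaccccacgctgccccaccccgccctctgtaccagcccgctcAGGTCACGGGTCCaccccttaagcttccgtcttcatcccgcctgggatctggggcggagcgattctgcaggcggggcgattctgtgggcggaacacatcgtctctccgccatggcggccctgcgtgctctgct
The half-site AGGTCA, searched on both strands, was found in 1 of the 7 windows, that of Echs1, 83 bases before the gene start, and in 16.3% of the 32851 windows of that length in the annotation. The paired form, in which AGGTCA follows AGGTCA after any 1 base and which therefore overlaps the half-site, was searched on both strands with up to 3 mismatches. It was found in 3 of the 7 windows, those of Hadh, Echs1 and Mlycd, and in 24.6% of all windows. Echs1 had 2 such matches, one with 2 mismatches that begins with the half-site and one 238 bases before the start. A match of letters is a description of these windows and was not tested against expression.

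Levels are given as log2 of the intensity after background correction and quantile normalization, and a difference between groups as a log2 change with its standard error (SE) or 95% confidence interval. A gene was called at a limma p-value adjusted by Benjamini-Hochberg below 0.05 over all 8058 tested features with a change of at least 1.5-fold. Between 10239 and 10805 of 25697 probes were detected per array. Of 16 hepatocyte markers with a probe, 12 were detected on all 6 arrays, and the probes of Alb, Fgb, Tat and Pck1 were detected on 0. For Kupffer cells this was 1 of 12 markers (Cd14), with 8 detected on 0 arrays, Clec4f and Vsig4 among them, for stellate cells 4 of 14, with 7 on 0 arrays, Lrat and Col1a1 among them, and for cholangiocytes 1 of 3, with Krt19 and Krt7 on 0. Sinusoidal endothelial markers were detected on all arrays for 9 of 15 genes, with 5 on 0, Stab2 and Kdr among them. Lymphocyte markers were detected on all arrays for 0 of 10 genes and on 0 arrays for 9.

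The unnormalized intensities of each list were summed per array. Hepatocyte markers summed to 344668 and 344704 with KD3010, to between 334665 and 387462 with GW1516 and to between 367715 and 379225 with DMSO. Kupffer markers summed to between 25216 and 25246 with KD3010, to between 29115 and 29806 with GW1516 and to between 24932 and 26563 with DMSO. Cholangiocyte markers summed to between 1195 and 1196 with KD3010, to between 1265 and 1509 with GW1516 and to between 1522 and 1600 with DMSO. Stellate markers summed to between 8004 and 9051 with KD3010, to between 6771 and 8552 with GW1516 and to between 8663 and 8819 with DMSO. Endothelial markers summed to between 5521 and 5766 with KD3010, to between 5471 and 6136 with GW1516 and to between 5859 and 6440 with DMSO. Lymphocyte markers summed to between 2335 and 2436 with KD3010, to between 2407 and 2428 with GW1516 and to between 2424 and 2520 with DMSO. The mean intensity over all probes was 1017 and 1067 with KD3010, 953.2 and 1095 with GW1516 and 1157 and 1103 with DMSO. By this mean the arrays of both agonists were thus also dimmer than the DMSO arrays. By the median intensity, KD3010 array B (266.2) lay above DMSO array B (263.5). Both KD3010 arrays lay below both DMSO arrays for hepatocyte, endothelial and cholangiocyte markers, and both GW1516 arrays lay above them for Kupffer markers and below them for stellate and cholangiocyte markers. After normalization the median log2 change of the 12 tested hepatocyte markers was -0.047 with KD3010 and 0.048 with GW1516, and that of the 10 tested endothelial markers -0.016 with KD3010 and 0.14 with GW1516. Over 2 tested Kupffer markers it was 0.34 with KD3010 and 0.38 with GW1516, over 5 stellate markers -0.024 and -0.019, and for Sox9, the cholangiocyte marker tested, -0.48 and 0.0052. The sums include probes detected on 0 arrays, among them 8 of 12 for Kupffer cells and 2 of 3 for cholangiocytes. At an unadjusted limma p below 0.05, Vim was higher with KD3010 and lower with GW1516, and Lyve1 was lower with both. At that p Sox9 was lower with KD3010 and Cd14 higher with GW1516. The part of these differences in the results below was not tested.

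With KD3010, 6 of the 7 tested members had a log2 change above 0, as 49.8% of all features had, with both KD3010 arrays above both DMSO arrays in each of the 6, and Echs1 lay below 0. Such separation was found in 21.4% of all features. With GW1516 all 7 log2 changes were above 0, as those of 50.6% of all features were. When arrays were scaled by their medians, Eci1 was at -0.064 and Acaa2, Echs1 and Mlycd lay between 0.017 and 0.019. Under that scaling Decr1 was at 0.20, Hadhb at 0.34 and Eci2 at 0.61. The arrays with GW1516 were apart from those with DMSO in 3 members, namely Hadhb, Eci2 and Decr1, where 20.7% of all features had this. In limma's test over all features 0 of 7 members were called with either agonist (smallest adjusted p = 0.257 with KD3010 and 0.269 with GW1516), against 0.124% of features called with KD3010 and 0.0869% with GW1516. At an unadjusted p below 0.05, 1 member was higher with KD3010, Eci2, where 5.44% of features were, and 2 were higher with GW1516, Hadhb and Eci2, where 4.69% were. Of the members 0 were lower at that p, where 6.76% of features were lower with KD3010 and 4.83% with GW1516. The median log2 change of the 7 members was 0.36 with KD3010 and 0.16 with GW1516, beside -0.0010 with KD3010 and 0.0037 with GW1516 over all features. Decr1 was detected on both arrays with KD3010 and with GW1516 but not on both with DMSO, so it was tested only through the groups where it was higher, and its unnormalized intensities overlapped between the groups. Over the other 6, which were detected on all arrays, 5 lay above 0 with KD3010 and 6 with GW1516, and the arrays were apart in 5 with KD3010 and in 2 with GW1516. In unnormalized intensity, Hadhb with either agonist and Acaa2, Eci1 and Mlycd with KD3010 also overlapped with DMSO. Of the members apart after normalization, only Eci2 was apart in unnormalized intensity too. Both comparisons use the same DMSO arrays.

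**Figure D1:**
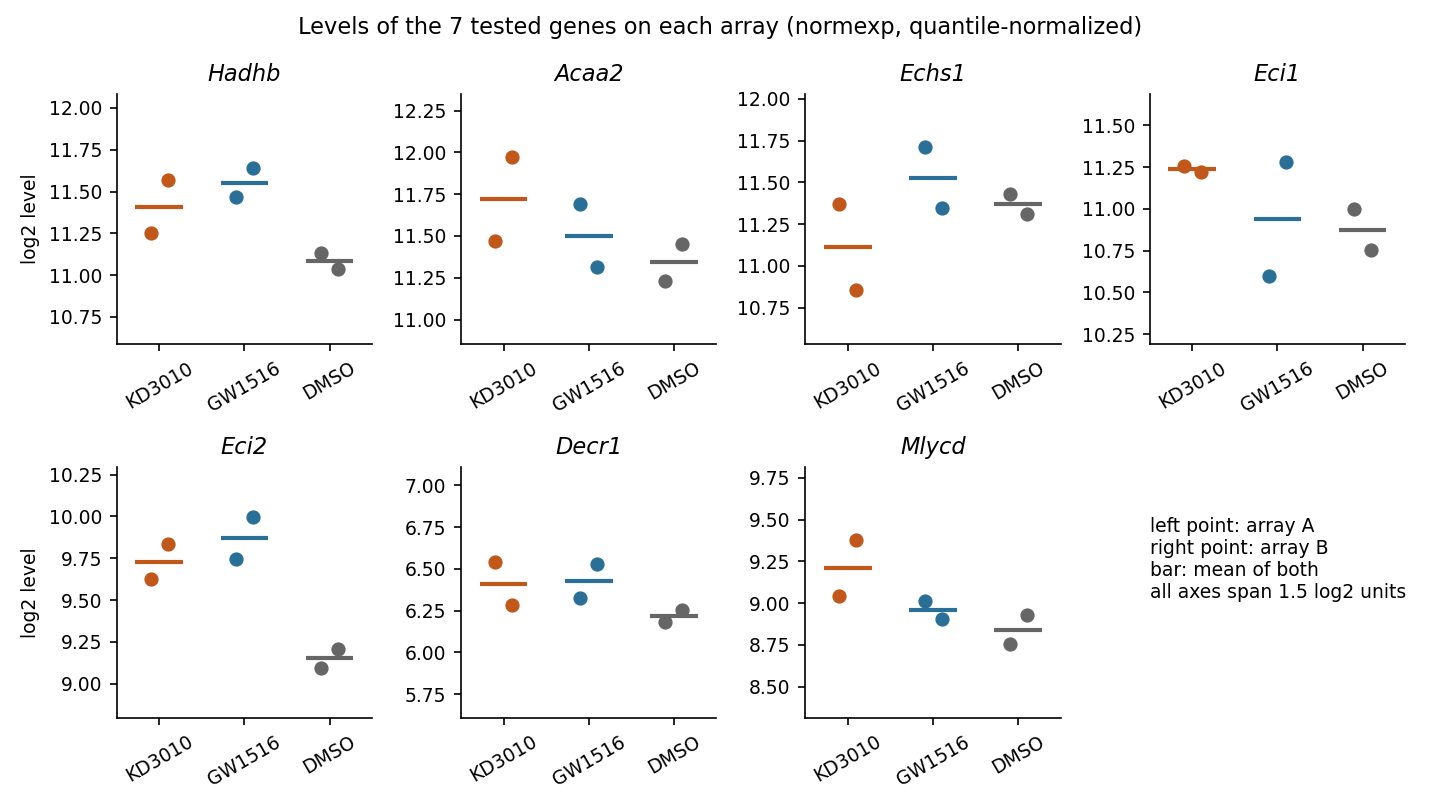
Log2 level (vertical axis, each spanning the same range) of the 7 tested genes on the 6 arrays, by treatment, with array A left, array B right and a bar at the mean of both. For Eci2 the KD3010 arrays (9.63 and 9.83) and the GW1516 arrays (9.75 and 10.00) all lie above the DMSO arrays (9.09 and 9.21).

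Hadhb, the thiolase subunit of the trifunctional protein, had log2 levels of 11.25 and 11.57 with KD3010, 11.47 and 11.64 with GW1516 and 11.13 and 11.03 with DMSO on arrays A and B. All 4 agonist arrays lay above both DMSO arrays, and the 2 agonist groups overlapped. The change was 0.33 ± 0.18 (SE) with KD3010 (limma adjusted p = 0.506) and 0.47 ± 0.18 with GW1516 (limma adjusted p = 0.458), which are 1.25-fold and 1.38-fold. The 95% interval was -0.067 to 0.72 with KD3010 and 0.076 to 0.86 with GW1516. Hadha, whose product forms the same complex and carries its hydratase and dehydrogenase steps, was not analysed here.

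Echs1, the hydratase for short chains, was the member that did not lie above DMSO with KD3010. Its levels were 11.37 and 10.85 with KD3010, 11.71 and 11.35 with GW1516 and 11.43 and 11.31 with DMSO. The KD3010 and DMSO arrays overlapped, since KD3010 array A lay between the DMSO arrays, and so did the GW1516 and DMSO arrays. The change was -0.26 ± 0.21 with KD3010 (limma adjusted p = 0.677), or 1.2-fold lower, and 0.16 ± 0.21 with GW1516 (limma adjusted p = 0.856), or 1.12-fold higher. The KD3010 value was -0.0015 without KD3010 array B and -0.52 without KD3010 array A. When GW1516 array A was left out, the GW1516 value was -0.024.

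Acaa2, the thiolase of the matrix that serves medium chains, was read by 4 probes, all detected on all 6 arrays. On the brightest, the levels were 11.47 and 11.97 with KD3010, 11.69 and 11.31 with GW1516 and 11.23 and 11.45 with DMSO. Both KD3010 arrays lay above the DMSO arrays, by little for array A, while the GW1516 arrays overlapped with both other groups. The change was 0.38 ± 0.22 with KD3010 (limma adjusted p = 0.527) and 0.16 ± 0.22 with GW1516 (limma adjusted p = 0.860). The other probes, from bright to dim, had changes of 0.46, 0.28 and 0.63 with KD3010 and 0.20, 0.17 and 0.062 with GW1516. Both KD3010 arrays lay above the DMSO mean on all 4 probes, whereas GW1516 array A did so on 3 and GW1516 array B on 1. On the brightest probe the KD3010 value was 0.63 without KD3010 array A and 0.13 without KD3010 array B, and the GW1516 value was -0.032 or 0.35 with GW1516 array A or B left out. In a limma fit over all 10530 kept probes, 0 of the 4 Acaa2 probes were called. Among these 4, the lowest limma adjusted p was 0.310 against DMSO and 0.299 between KD3010 and GW1516. Both were for the dimmest, the first with KD3010. The probes share their RNA and arrays and are not replicates.

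**Figure D2:**
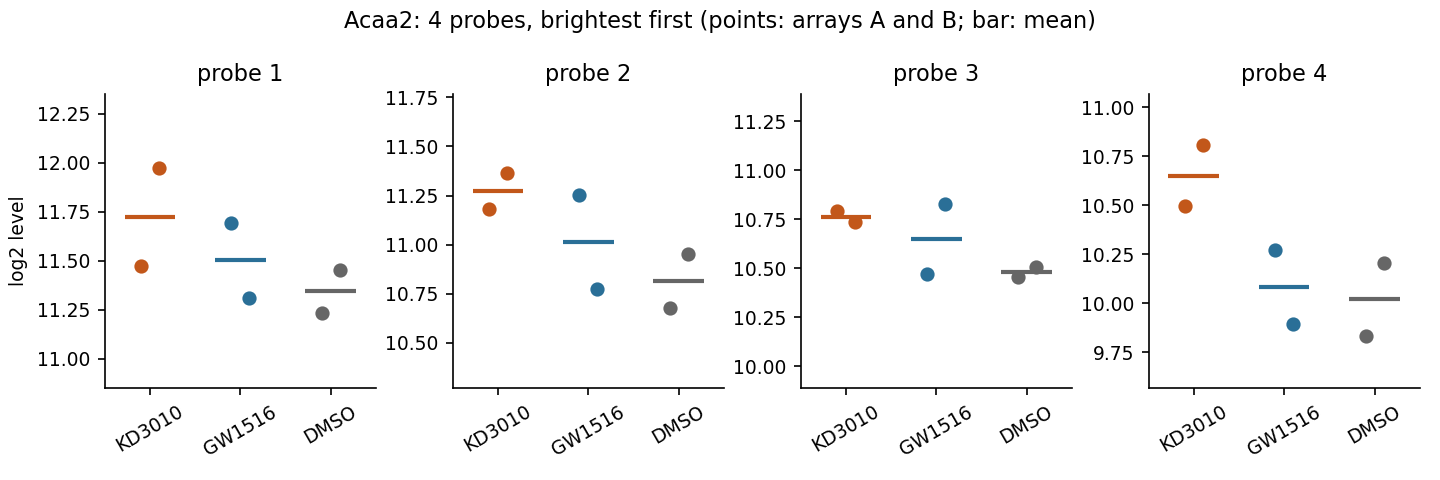
Log2 level (vertical axis) of the 4 Acaa2 probes on the 6 arrays, from the brightest to the dimmest, with a bar at the mean of the 2 arrays of a treatment. The KD3010 mean is the highest of the 3 on every probe, by between 0.28 and 0.63 over DMSO.

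Hadh, the soluble hydroxyacyl-CoA dehydrogenase, had 2 probes near background. The brighter had intensities of 285.8 and 316.9 with KD3010, 284.1 and 274.7 with GW1516 and 301.1 and 258.4 with DMSO, and was detected on 1 KD3010 array, 1 GW1516 array and 0 DMSO arrays. The dimmer lay between 210.6 and 231.0 and was detected on 0 of 6 arrays. Hadh was therefore not tested, since it had no group with both arrays detected, and a probe near background gives no level of the RNA. Decr1 was the member just inside that limit, with detection p-values between 0.0175 and 0.0451 on the 4 agonist arrays and of 0.0514 and 0.0476 on the DMSO arrays. The brighter Hadh probe was just outside it, with detection p-values between 0.0226 and 0.178.

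Eci2, an enoyl-CoA isomerase found in mitochondria and peroxisomes, was the member with the largest changes. Its log2 levels were 9.63 and 9.83 with KD3010, 9.75 and 10.00 with GW1516 and 9.09 and 9.21 with DMSO. All agonist arrays lay above both DMSO arrays, and the agonist groups overlapped. The change was 0.58 ± 0.17 with KD3010 (95% interval 0.19 to 0.96) and 0.72 ± 0.17 with GW1516 (0.34 to 1.11), which are 1.49-fold and 1.65-fold. Neither was called (limma adjusted p = 0.257 with KD3010 and 0.269 with GW1516). Ordered by log2 change from the highest, Eci2 was feature 164 of 8058 with KD3010 and 62 with GW1516. The related gene Eci3 had a probe that was detected on 0 of 6 arrays, and whether the Eci2 probe also binds its transcript was not tested.

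Eci1, the other mitochondrial isomerase, had levels of 11.26 and 11.22 with KD3010, 10.60 and 11.28 with GW1516 and 11.00 and 10.75 with DMSO. Both KD3010 arrays lay above the DMSO arrays, and the GW1516 arrays lay on either side of them. The change was 0.36 ± 0.23 with KD3010 (limma adjusted p = 0.563) and 0.066 ± 0.23 with GW1516 (limma adjusted p = 0.949). With GW1516 the change was -0.27 on array A alone and 0.41 on array B alone, and the unnormalized intensity was 1547 on array A and 2788 on array B.

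Decr1, the reductase for dienoyl-CoA, lay close to background with levels of 6.54 and 6.29 with KD3010, 6.33 and 6.53 with GW1516 and 6.18 and 6.25 with DMSO. The normalized levels of the agonist arrays lay above those of the DMSO arrays, KD3010 array B by little. The unnormalized intensities were 301.8 and 297.8 with KD3010, 286.5 and 308.8 with GW1516 and 300.6 and 295.4 with DMSO, which overlap, and only 1 of the DMSO arrays detected the probe. The change was 0.20 ± 0.17 with KD3010 (limma adjusted p = 0.695) and 0.21 ± 0.17 with GW1516 (limma adjusted p = 0.740). With no background correction the Decr1 change was 0.059 with KD3010 and 0.064 with GW1516. The size of a change in a probe this dim thus depends on how background is handled.

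Mlycd, the decarboxylase that removes malonyl-CoA, had levels of 9.04 and 9.38 with KD3010, 9.01 and 8.90 with GW1516 and 8.75 and 8.93 with DMSO. The KD3010 arrays lay above those of both other groups, array A by little, and the GW1516 and DMSO arrays overlapped. The unnormalized intensities were 691.6 and 879.8 with KD3010, 666.7 and 717.6 with GW1516 and 708.2 and 731.3 with DMSO, which overlap. The change was 0.37 ± 0.18 with KD3010 (limma adjusted p = 0.445) and 0.12 ± 0.18 with GW1516 (limma adjusted p = 0.876).

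**Figure D3:**
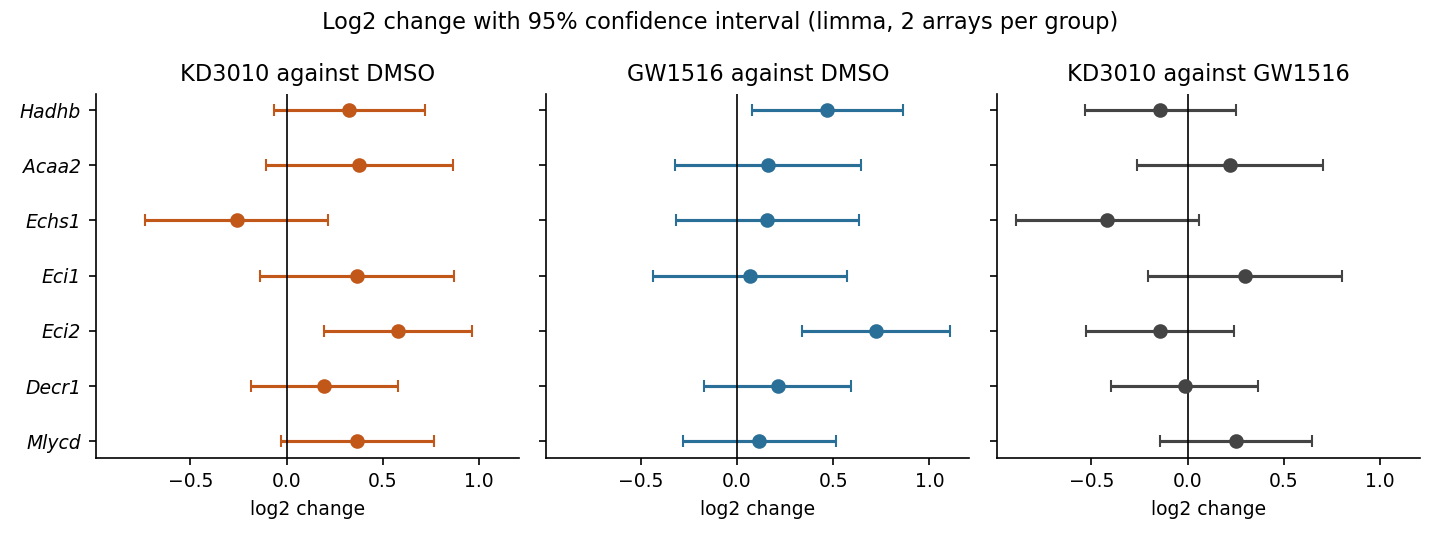
Log2 change (horizontal axis) with its 95% confidence interval for the 7 tested genes in the 3 comparisons. The interval lies above 0 for Eci2 with both agonists and for Hadhb with GW1516 (0.076 to 0.86), and in the comparison of KD3010 with GW1516 all 7 intervals include 0.

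Values differed among the members within each agonist. With KD3010 the largest change was that of Eci2 (0.58), and Acaa2, Mlycd, Eci1 and Hadhb lay between 0.33 and 0.38. With KD3010 array A or B left out, Acaa2 was 0.63 or 0.13, Mlycd 0.53 or 0.20 and Hadhb 0.48 or 0.17. With GW1516, Eci2 (0.72) and Hadhb (0.47) were followed by the other 5 between 0.066 and 0.21. Among all features with KD3010, 1.96% were at least 1.5-fold higher and 0 of the 7 members were, and with GW1516 this was 1.7% and 1 member, Eci2. With GW1516, Eci2 fell short of 1.5-fold with the authors' normalized values (0.551) and with no background correction (0.555). Scaling by array medians shifted the median of all features by -0.12 with KD3010 and -0.096 with GW1516, so changes and list medians of that size or smaller are given as values, with no direction. Under it the number of members higher at an unadjusted limma p below 0.05 was 0 with KD3010 and 1 with GW1516. That number was 4 without KD3010 array A and 0 without KD3010 array B in the comparison of KD3010 with DMSO. In the comparison of GW1516 with DMSO it was 1 without DMSO array A, DMSO array B or GW1516 array B.

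**Figure D4:**
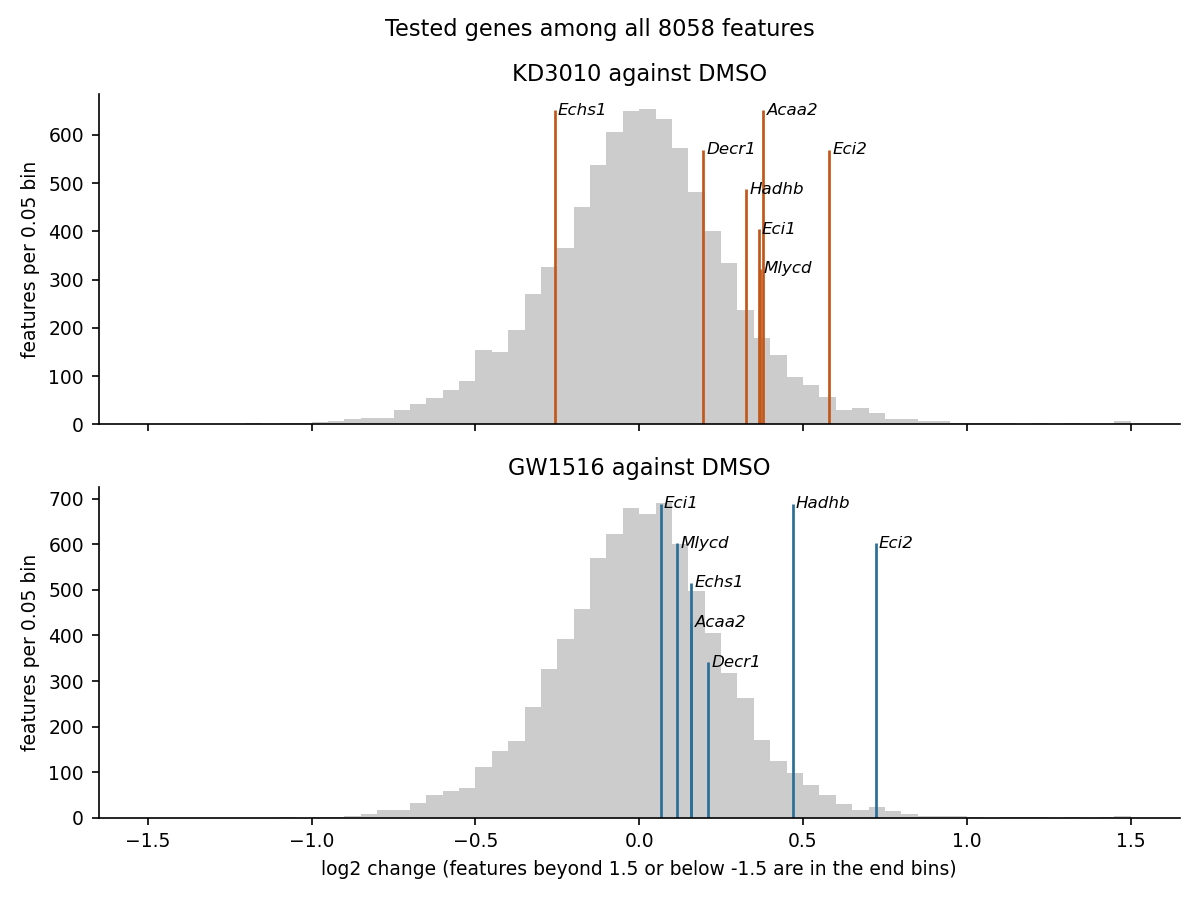
Distribution of log2 changes (horizontal axis) over all 8058 tested features, with the number of features per bin on the vertical axis and the 7 members as lines, for KD3010 above and GW1516 below. Eci2 lies farthest to the right in both (0.58 and 0.72), and Echs1 is left of 0 with KD3010 (-0.26).

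The core spiral enzymes (Hadhb, Acaa2 and Echs1) and the auxiliary enzymes (Eci1, Eci2 and Decr1) were compared by their mean difference from the DMSO mean of each gene, on the log2 scale and with no test. For the core enzymes it was 0.098 and 0.20 on the KD3010 arrays, with a mean of 0.15, and 0.36 and 0.17 on the GW1516 arrays, with a mean of 0.26. For the auxiliary enzymes it was 0.39 and 0.37 with KD3010, with a mean of 0.38, and 0.14 and 0.52 with GW1516, with a mean of 0.33. Core minus auxiliary was thus -0.23 with KD3010, at -0.30 and -0.17 on its arrays, against -0.010 and 0.010 on the DMSO arrays. With GW1516 it was -0.071, at 0.21 and -0.35 on its arrays, which lie on either side of the DMSO arrays. Without the dim Decr1 the values were -0.32 with KD3010 and -0.13 with GW1516, against -0.033 and 0.033 on the DMSO arrays. The pooled standard deviation of this difference between arrays of a group was 0.24, which exceeds the mean for both agonists over all 3 auxiliary genes. That spread comes mostly from the GW1516 arrays, since the SD of the 2 arrays was 0.091 with KD3010, 0.40 with GW1516 and 0.014 with DMSO. With the authors' normalized values the difference was -0.14 with KD3010 and 0.0081 with GW1516. Each set holds one gene that carries much of its value: Eci2 is the highest auxiliary gene with both agonists, and Echs1 is the lowest core gene with KD3010.

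Set directly against each other, at doses and times that are not known to match, KD3010 and GW1516 gave 0 of 7 calls, and 0 of all 8058 features (0%) were called in limma's test, where 1122 had an unadjusted p below 0.05. Of the members 0 had such a p, where 6.14% of features were higher and 7.78% lower with KD3010, and 3 of 7 had a log2 difference above 0, as 49.3% of features had. Of the members 0 were at least 1.5-fold higher with KD3010 than with GW1516, as 2.51% of features were. The largest difference was that of Echs1, -0.42 ± 0.21 (95% interval -0.89 to 0.058, limma adjusted p = 0.421), or 1.33-fold lower with KD3010. Eci1 differed by 0.30 (-0.21 to 0.80), Mlycd by 0.25 (-0.15 to 0.65) and Acaa2 by 0.22 (-0.26 to 0.70). The dimmer Acaa2 probes, which do not stand for the gene, differed by 0.26, 0.11 and 0.57, the last at an unadjusted limma p of 0.023. Hadhb and Eci2 each differed by -0.14, with intervals of -0.54 to 0.25 and -0.53 to 0.24, and Decr1 by -0.016 (-0.40 to 0.37). Mlycd was the member whose KD3010 arrays both lay above the GW1516 arrays, as 21% of all features did. For Mlycd, KD3010 array A did so by little, and the unnormalized intensities overlapped. These intervals leave room for differences in either direction, so they do not show that the agonists act alike on these genes.

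The other enzymes of the route were taken as lists, and 0 of their tested genes were called in any of the 3 comparisons. The counts below at an unadjusted limma p below 0.05 stand beside the shares over all features. These were 5.44% higher and 6.76% lower with KD3010, and 4.69% higher and 4.83% lower with GW1516. In the carnitine shuttle, which brings fatty acids into mitochondria, 4 of 7 genes with a probe were tested. Cpt1a, Cpt1b and Cpt1c were not, so the median leaves them out. The median log2 change of the 4 tested genes was 0.55 with KD3010 and 0.59 with GW1516, and 2 and 3 of them were higher at an unadjusted p below 0.05. The fourth gene, Crat, a carnitine acetyltransferase, which was looked at after its values were seen, differed by -0.17 with KD3010 and -0.36 with GW1516. Cpt2, which transfers the acyl group back to CoA, had levels of 11.05 and 11.00 with KD3010, 10.96 and 11.11 with GW1516 and 10.10 and 10.33 with DMSO, so that its change was 0.81 ± 0.17 with KD3010 (limma adjusted p = 0.139) and 0.82 ± 0.17 with GW1516 (limma adjusted p = 0.261). Slc22a5, the carnitine importer, differed by 0.84 ± 0.16 with KD3010 (limma adjusted p = 0.117) and 0.76 ± 0.16 with GW1516 (limma adjusted p = 0.269). Both of these changes are larger than that of any member with the same agonist.

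The acyl-CoA dehydrogenases and their electron acceptors, which act just before the members, had a median of 0.10 with KD3010 and 0.28 with GW1516 over 9 tested genes, of which 1 and 2 were higher at an unadjusted p below 0.05 and 0 lower. Acadl, the long-chain dehydrogenase, was 1.60-fold higher with KD3010 and 1.98-fold higher with GW1516. Etfdh, which passes the electrons on to the respiratory chain, differed by 0.25 ± 0.17 with KD3010 and 0.70 ± 0.17 with GW1516, and Etfb, a subunit of the electron carrier, by 0.31 and 0.28. The adjusted limma p was between 0.162 and 0.613 in these 6 values.

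In peroxisomes the same steps are done by other proteins, and over 10 tested genes the median was -0.030 with KD3010 and 0.18 with GW1516. At an unadjusted p below 0.05, 1 was higher with KD3010 and 3 with GW1516, and 0 were lower. Ehhadh, which joins a hydratase and a dehydrogenase as Hadha does in mitochondria, had levels of 7.93 and 7.86 with KD3010, 9.08 and 8.49 with GW1516 and 7.30 and 7.59 with DMSO. Its change was 0.45 ± 0.22 with KD3010 (limma adjusted p = 0.445) and 1.34 ± 0.22 with GW1516 (limma adjusted p = 0.113), and between the agonists it differed by -0.88 ± 0.22 (limma adjusted p = 0.164). The thiolase Acaa1b differed by 0.29 ± 0.20 with KD3010 and 0.71 ± 0.20 with GW1516. Decr2, the peroxisomal dienoyl-CoA reductase, differed by 0.68 ± 0.21 with KD3010 and 0.30 ± 0.21 with GW1516, and its KD3010 arrays stood at 7.17 and 6.58.

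Mitochondrial enzymes of amino acid breakdown, which include other hydratases and dehydrogenases, had a median of -0.16 with KD3010 and 0.010 with GW1516 over 11 tested genes. One was lower with KD3010 at an unadjusted p below 0.05, the branched-chain dehydrogenase Acadsb (-0.42 ± 0.17, limma adjusted p = 0.381), and 1 was higher with GW1516, Aldh6a1 of valine breakdown (0.40 ± 0.16, limma adjusted p = 0.473). In this list Mccc1, a carboxylase subunit of leucine breakdown, differed by -0.34 with KD3010 and -0.15 with GW1516, and Echdc3 by 0.14 and 0.33. Genes that make malonyl-CoA or control its synthesis, the counterparts of Mlycd, had a median of -0.062 with KD3010 and -0.10 with GW1516 over 6 tested genes, of which 0 passed an unadjusted p below 0.05 in either direction. Among them Acaca, the carboxylase that makes malonyl-CoA, differed by -0.26 ± 0.18 with KD3010 and 0.047 ± 0.18 with GW1516. Acsf3, a mitochondrial malonyl-CoA synthetase, differed by 0.24 and 0.31, and Prkaa2, a catalytic subunit of the kinase AMPK, by -0.11 and -0.27. Of the ketone body genes only Bdh1 was tested, at -0.36 ± 0.35 with KD3010 and 0.22 ± 0.35 with GW1516, and its KD3010 arrays were far apart at 6.84 and 8.18.

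**Figure D5:**
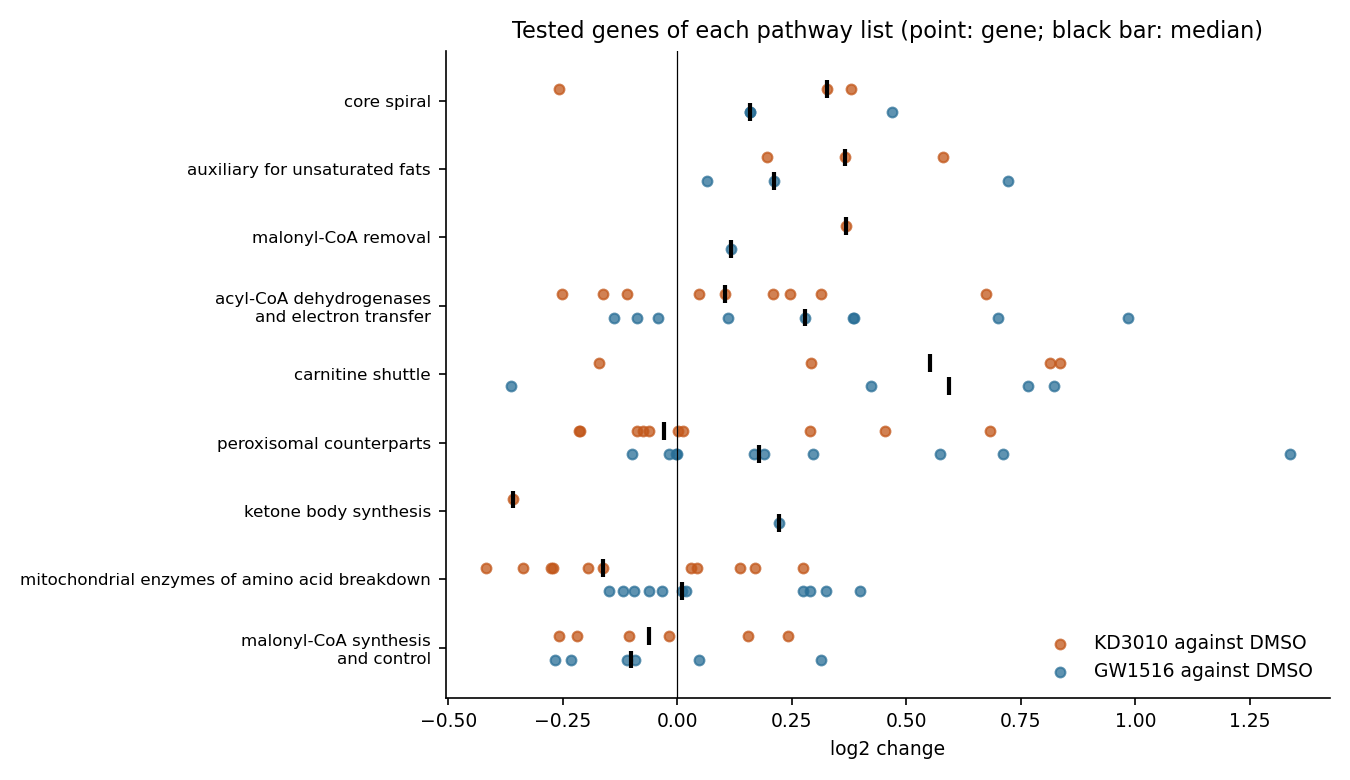
Log2 change (horizontal axis) against DMSO of every tested gene of the members and of the pathway lists, with KD3010 above and GW1516 below in each list and a black bar at the median. The carnitine shuttle has the highest medians (0.55 and 0.59), and the farthest point to the right is Ehhadh with GW1516 (1.34).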

How the data were processed

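RNA was converted to biotin-labelled cRNA and hybridised to bead arrays, per the labels' protocols. The authors deposited an unnormalized mean intensity and a detection p-value for each probe, per the file headers. They also deposited intensities that they had normalized, without naming the method in any source used here. The submitters' processing notes name GenomeStudio. The normalized columns match the series matrix exactly (largest difference 0, column medians of 257.8 to 257.9, linear and not centred), and only through this match are arrays A and B of a group replicates 1 and 2. A total of 31 other per-sample columns, 1 of them without a name, were not used.

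The background was removed with normexp on the detection p-values (offset 16), before quantile normalization and log2 (limma 3.58.1, R 4.3.3). A probe entered if both arrays of some group detected it (10530 probes), and the brightest stood for its gene. This left 8058 features, of which 7457 are named genes. Of 25697 probes 23978 had 1 symbol, 0 several and 1719 none, with 23962 named through Entrez identifiers of GRCm38.p6. One linear model over all 6 arrays gave the 3 comparisons (lmFit, eBayes, 3 residual and 6.54 prior degrees of freedom), after it had been tested on simulated data. The number of arrays limits the precision.

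The members and lists were chosen with earlier results of these data known. Named genes are all members, the 2 genes of each pathway list with the largest absolute change with each agonist, any called list gene (0), and the 5 genes most like the members' mean profile. Alternatives covered background, normalization, filter, probes per gene, variance model, samples, replicate block and each array left out.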

Additional observations from a re-analysis of the deposited data

How the results depend on the processing

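Of 21 changes of single members (7 genes in 3 comparisons), 0 were called under any of the 16 alternatives, and 14 kept their direction in all that could be run (15 for Decr1, which is not tested among probes detected on all 6 arrays). Eci2 against DMSO lay between 0.43 and 0.68 with KD3010 and between 0.55 and 0.85 with GW1516, with an unadjusted limma p below 0.05 in 14 and 16 of 16 alternatives (limma adjusted p between 0.113 and 0.565, and between 0.0655 and 0.656). For Hadhb with GW1516 this was 12 of 16 (0.34 to 0.55). These alternatives are not separate checks. With the trended variance, the replicate block, the 2 groups alone or an array of the third group left out, a change cannot move. Its direction there was fixed in advance. For members with 1 probe the same holds for the filters and for probes averaged per gene. Leaving out an array of the third group also repeats the fit of the 2 groups alone. Direction was reversed as follows, and the cause was not tested. Against DMSO with GW1516, Eci1 was -0.064 with median scaling, -0.056 without DMSO array B and between -0.27 (without GW1516 array B) and 0.41 (without GW1516 array A) with an array left out. Leaving out GW1516 array A or B gave -0.032 or 0.35 for Acaa2 and -0.024 or 0.34 for Echs1. Between KD3010 and GW1516, leaving out KD3010 array A or B gave 0.016 or -0.30 for Hadhb, 0.47 or -0.030 for Acaa2 and -0.14 or 0.11 for Decr1. Leaving out GW1516 array A or B gave -0.041 or 0.64 for Eci1, and Decr1 was 0.084 without array B. The count of members higher at an unadjusted limma p below 0.05 with KD3010 (1) was 3 with the authors' values, 4 with no background correction, 3 with a trended robust variance, 2 with probes averaged per gene, 0 with median scaling and 2 with no filter on dim probes (Hadh included), and 0 to 4 with an array left out. With GW1516 (2) it was 1 with median scaling and 1 to 2 with an array left out. Core minus auxiliary was between -0.35 and 0.21 with GW1516, between -0.44 and 0.12 for KD3010 against GW1516 and between -0.30 and -0.17 with KD3010 when an array was left out. With KD3010 (-0.23) it was -0.14 both with the authors' values and with no background correction, and with GW1516 (-0.071) it turned to 0.0081 and 0.016. The count of called features for KD3010 against DMSO (10) was 32 with the authors' values, 34 with no background correction, 24 with an offset of 50, 16 with probes detected on all arrays, 6 with no filter, 1 with the 2 groups alone and 49 with the trended variance, and 0 to 2 with an array left out. For GW1516 (7) it was 12 with the authors' values, 2 with median scaling, 2 with no filter and 17 with the trended variance, and 0 to 5 with an array left out. Between the agonists (0) it was 39 with the authors' values, 38 with no background correction, 15 with an offset of 50, 5 with probes detected on all arrays and 57 with the trended variance, and 0 with any array left out. The replicate numbers are shared by the groups, but over all features same-numbered arrays did not deviate together (correlations of -0.018, -0.0065 and 0.016). With 2 arrays per group this cannot decide whether they share more than a number. With the replicate block the called features were 9 for KD3010, 3 for GW1516 and 0 between the agonists, and the members at an unadjusted p below 0.05 were again 1 with KD3010 and 2 with GW1516. Dim probes, Decr1 and Hadh among the members, limit what can be said of changes there.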

Other observations

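The 5 genes outside the members whose levels followed the mean profile of the 7 tested members most closely over the 6 arrays were Top3b (Pearson r = 0.994), a topoisomerase, Surf4 (0.989), a cargo receptor of the endoplasmic reticulum, Pim3 (0.986), a protein kinase, Eng (0.984), an endothelial marker, and Eif1b (0.980), a translation initiation factor. These correlations were the highest of all named tested genes over only 6 arrays and are given as a description. The profile itself stood at 0.056 and 0.14 with KD3010, 0.056 and 0.12 with GW1516 and -0.19 and -0.18 with DMSO, as a mean difference from each member's own mean. Pim3 had the largest changes of the 5, at levels of 11.52 and 11.75 with KD3010, 11.53 and 11.57 with GW1516 and 10.84 and 10.74 with DMSO. Its log2 change was 0.84 with KD3010 (limma adjusted p = 0.127) and 0.75 with GW1516 (limma adjusted p = 0.269), so it was not called, and the other 4 were not called either (limma adjusted p between 0.293 and 0.604 against DMSO).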
